A study of Mus musculus with 2 samples.

Results

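Cells rich in RNA of mitosis genes were described among LSK cells of mouse bone marrow. LSK cells lack lineage markers, carry Sca-1 and c-Kit, and include both haematopoietic stem cells (HSCs) and the multipotent progenitors (MPPs) made by them. The cells described were chosen by RNA alone, and cells in G2, the phase before mitosis, were not told apart from cells in mitosis. Mitotic cells below means the cells so chosen. In each cell the UMIs (unique molecular identifiers, 1 per captured RNA molecule) of Ube2c, Cenpa, Ccnb2, Cenpf, Ccnb1, Aspm, Cdc20, Cdkn3, Knstrn and Pimreg were summed and divided by all its gene UMIs. The 300 cells with the highest share were taken, of 7967 cells that had at least 500 genes and under 10% mitochondrial UMIs. Of these 300 cells, 174 came from the 3998 cells of the chelator pool and 126 from the 3969 cells of the control pool.

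Chelator mice had been given deferoxamine, a drug that binds iron, at 50 mg/kg in courses of 7 daily doses begun every 4 weeks. Control mice had been given the salt solution HBSS on that schedule. Treatment started at about 6 months of age and went on for 13 months, so both groups were aged mice. Each condition was 1 pool of sorted cells with a hashtag antibody of its own. The pools shared 1 loading, from which an RNA and an antibody-tag library were made (CITE-seq, which reads RNA and surface proteins from the same cell). The strain and the number of mice per pool are not stated in the sources used here. Without replicates the conditions could not be tested against each other over mice, and the 95% intervals given with values cover counting error alone.

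Both pools mixed cells with Xist, an RNA of females, and cells with transcripts of the Y chromosome, in unequal parts. Cells with Xist numbered 897 in the chelator and 1417 in the control pool, those with Y-linked transcripts 2542 and 1952. Values within the sex classes are therefore given beside the main differences between the pools. The matrices held 66573361 gene UMIs in the chelator pool and 63370466 in the control pool, and no barcode occurred in both. The hashtag of its own pool was the stronger in all 300 mitotic cells. Of them 2, both in the chelator pool, had at least 2 Xist UMIs and at least 2 Y-linked UMIs. In all 12 mitotic cells, those 2 included, fell in neither sex class. Since the choice of cells used their RNA, every difference in RNA between them and the other cells is a description and carries no test.

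Mitosis begins when cyclin B with the kinase CDK1 is switched on by CDC25 phosphatases, after which chromosomes condense, spindle microtubules attach to kinetochores, and a checkpoint holds the cell until every kinetochore is attached. The anaphase-promoting complex, a ubiquitin ligase, then marks cyclin B and securin for destruction, using CDC20 as its activator and UBE2C and UBE2S as its ubiquitin-conjugating enzymes. Much of this gene set is transcribed late in the cycle from promoters that hold CCAAT boxes, bound by NF-Y, and a CHR element (cell cycle genes homology region), bound by the DREAM and MuvB complexes. Genes of DNA replication are instead switched on at the start of S phase by E2F factors. Long-term HSCs divide rarely, whereas the multipotent progenitors below them divide often.

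Promoters of 6 of the genes that chose the cells are shown beside those of 2 replication genes that were low in the same cells, to set their motifs side by side. The sequences come from RefSeq for GRCm38.p6, run 5′ to 3′ on the strand of the gene, and cover 130 bases before to 25 bases after the annotated start. Capitals mark the letters of a CHR element, of a CCAAT box or, in Mcm6, of an E2F site, on either strand. They are from Ube2c (chr2:164769799-164769953, + strand), Cenpa (chr5:30666756-30666910, + strand), Ccnb2 (chr9:70421530-70421684, - strand), Cenpf (chr1:189688062-189688216, - strand), Ccnb1 (chr13:100786462-100786616, - strand), Cdc20 (chr4:118437319-118437473, - strand), Mcm6 (chr1:128359681-128359835, - strand) and Mcm2 (chr6:88898756-88898910, - strand).
Ube2c: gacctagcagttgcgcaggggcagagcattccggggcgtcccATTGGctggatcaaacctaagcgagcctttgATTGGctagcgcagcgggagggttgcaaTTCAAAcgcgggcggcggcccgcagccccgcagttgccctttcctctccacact
Cenpa: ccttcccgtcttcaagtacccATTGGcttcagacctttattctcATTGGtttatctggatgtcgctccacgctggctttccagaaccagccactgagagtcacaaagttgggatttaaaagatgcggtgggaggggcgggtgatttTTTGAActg
Ccnb2: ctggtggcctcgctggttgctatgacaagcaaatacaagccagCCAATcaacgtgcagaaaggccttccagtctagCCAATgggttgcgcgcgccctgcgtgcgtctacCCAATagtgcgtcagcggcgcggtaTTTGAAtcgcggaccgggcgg
Cenpf: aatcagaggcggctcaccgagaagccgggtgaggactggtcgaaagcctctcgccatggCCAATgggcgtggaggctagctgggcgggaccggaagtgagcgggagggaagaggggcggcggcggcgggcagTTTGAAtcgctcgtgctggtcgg
Ccnb1: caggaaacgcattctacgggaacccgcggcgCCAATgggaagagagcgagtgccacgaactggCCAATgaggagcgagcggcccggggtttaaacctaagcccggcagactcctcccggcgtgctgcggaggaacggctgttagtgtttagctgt
Cdc20: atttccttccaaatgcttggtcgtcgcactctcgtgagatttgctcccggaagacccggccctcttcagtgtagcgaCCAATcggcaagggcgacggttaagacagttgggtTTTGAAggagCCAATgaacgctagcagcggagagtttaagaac
Mcm6: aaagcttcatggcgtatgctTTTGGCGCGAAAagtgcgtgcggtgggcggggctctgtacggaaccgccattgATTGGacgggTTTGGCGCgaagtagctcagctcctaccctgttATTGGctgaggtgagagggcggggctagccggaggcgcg
Mcm2: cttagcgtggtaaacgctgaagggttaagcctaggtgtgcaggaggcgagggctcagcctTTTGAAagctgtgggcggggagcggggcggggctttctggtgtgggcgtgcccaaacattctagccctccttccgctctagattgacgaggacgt

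In Ccnb2 the 3 CCAAT boxes began at bases -87, -54 and -21, each 33 bases after the one before, and TTTGAA began at base 5, just inside the transcript. Cenpf had TTTGAA at base 3, Cdc20 at -18 and Cenpa at 17, and Ube2c had the reverse complement TTCAAA at -29. Ccnb1 held CCAAT at -99 and -67, and no CHR letters in this window. Mcm6 held E2F letters at -110, -106 and -47, the first pair overlapping. Mcm2 held no E2F letters and had TTTGAA at -70. Within the printed stretch this was farther from the start than in the 5 mitotic promoters with CHR letters. Beyond that stretch Ccnb2 had a further TTTGAA at -167.

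The motifs were then counted in 300-base promoters, from 250 bases before to 50 after the start, on both strands. A CHR element was read as TTTGAA, and also as its variant, TTCGAA. The CCAAT box was read by its name. An E2F site was read as TTTGGCGC, TTTCGCGC, TTTGCCGC or TTTCCCGC. At least 2 CCAAT boxes and a CHR element within 50 bases of the start were counted in 6 of the 9 matched genes that chose the cells, 66.7%. The promoter table held 32851 promoters for 27025 genes, and the counts are per gene. For a gene with several promoters, they do not show that this pair of motifs stood in the same promoter. The same pair stood in 6 of 13 matched genes among the 15 named below as highest, in 0 of 12 matched among the 15 named as lowest, and in 1.003% of the 27025 genes of the promoter table. Of all genes at least 1.5-fold higher in mitotic cells than in the other cells, 43 of 339 matched genes had it, 12.7%, against 2 of 293 (0.683%) of those at least 1.5-fold lower. The pair stood in 101 of the 6747 matched genes among all genes tested. Among 13 matched replication licensing genes the pair stood in 2, 15.4%, and among 31 matched S-phase enzymes in 0. E2F letters stood in 0 of the 9 genes that chose the cells and in 8 of the 13 licensing genes (61.5%) and 10 of the 31 S-phase enzymes (32.3%). They stood in 5.60% of all higher genes, against 5.39% of all genes tested, 14.3% of the lower genes and 2.61% of the whole table. These matches describe letters in a window and do not show binding.

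The label was checked against its markers. Ube2c, which encodes the ubiquitin-conjugating enzyme of the anaphase-promoting complex, was at 1489 CPM (UMIs per 1000000 gene UMIs, summed over cells) in chelator mitotic cells and 1553 CPM in control mitotic cells, against 92.96 and 95.8 CPM in the other cells of the chelator and the control pool. A single chelator mitotic cell held a median of 38 Ube2c UMIs and a control one 38.5, and 1 cell in each pool had none. Cenpa, the histone H3 variant of centromeres, was at 704 CPM in chelator and 695 CPM in control mitotic cells, against 64.2 and 66.8 CPM in the other cells. Ccnb1, cyclin B1, was at 367 and 379 CPM, against 25.6 and 25.8 CPM. Each of these genes stood far above the other cells in both pools, which follows from the choice of cells.

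Among the 10 genes of the rule the fold over the other cells ran from 8.72 for Knstrn, a kinetochore protein, to 16.1 for Ube2c over both pools. Ccnb2, cyclin B2, was 9.86-fold higher in the chelator and 11.2-fold higher in the control pool. Cdc20, the activator of the anaphase-promoting complex, was 11.0-fold and 10.9-fold higher. Cenpf, a kinetochore protein of G2 and M, was 12.4-fold and 12.8-fold higher, and Aspm, a spindle pole protein, 13.4-fold and 13.8-fold. A Ube2c UMI was seen in 99.4% of chelator and 99.2% of control mitotic cells, against 7.34% and 7.72% of the other cells in the HSC gate defined below, whose median gene UMIs were 13224 and 12655, against 24764 and 23612.5 in mitotic cells. These values follow from the choice of cells and support nothing by themselves.

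The score had no gap at its edge. The last 3 cells inside held 38.7 rule-gene UMIs per 10000 gene UMIs, and the first 3 outside 38.6, 38.6 and 38.5. Within the 300 cells the median was 52.3 and the highest 90.6, against a median of 0.401 in the other 7667 cells, of which 49.2% had no UMI of the 10 genes. The group is thus the top of a continuous range, and the cells ranked 301 to 600 are used below as the nearest comparison.

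Mitotic cells carried more RNA. Median gene UMIs per cell were 24764 in chelator and 23612.5 in control mitotic cells, against 14113 and 13475 in the other cells, a ratio of 1.77 over both pools. Detected genes numbered 5879.5 and 5687 per mitotic cell at the median, against 4338 and 4212. With every cell thinned to 5000 UMIs, leaving out 3 chelator and 1 control mitotic cell and 135 and 158 of the other cells as shallower, the medians were 2283 and 2290 genes in mitotic cells and 2223 in the other cells of either pool. Mitochondrial UMIs were 1.68% of the total at the median, against 2.11% in the other cells. Cells ranked 301 to 600 had a median of 24357.5 gene UMIs, close to the mitotic cells.

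Across all genes, a gene was tested when the mean of its observed UMIs in mitotic cells and those expected at the level of the other cells was at least 100, and it was counted as higher or lower when past 1.5-fold in both pools. Of 8392 genes tested, 433 (5.16%) were higher and 378 (4.50%) lower in mitotic cells, and the median gene had a fold of 1.012. The lists below were chosen with results of these data known, and the shares of all genes are the background against which their counts stand.

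Beyond the 10 genes of the rule, the 15 genes named as highest had folds of at least 8.15 in each pool. Fam83d, which brings casein kinase 1 to the spindle, was at 104 CPM in chelator and 111 CPM in control mitotic cells, against 6.22 and 6.91 CPM in the other cells, 16.8-fold and 16.02-fold higher. Cdc25b, a phosphatase that starts mitosis by activating CDK1, was at 139 and 133 CPM, against 10.3 and 11.0 CPM. Its relative Cdc25c was at 74.0 and 73.7 CPM, against 8.06 and 7.67 CPM. Cyclin A2 (Ccna2) was 5.98-fold and 6.33-fold higher and its partner Cdk1 5.11-fold and 5.31-fold. Of 24 cyclins and CDK regulators of G2 and M, 14 were higher and 2 lower, with a median log2 fold of 1.51. Foxm1, a transcription factor of G2 and M genes, was 3.31-fold and 3.55-fold higher, whereas Mybl2, its partner on MuvB, was at 5.76 and 6.28 CPM, against 22.6 and 21.6 CPM.

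Kinases of mitosis were high with them. Plk1, which drives centrosome maturation and mitotic entry, was 9.68-fold higher in chelator and 9.23-fold in control cells, and Aurka, the spindle pole kinase, 8.84-fold and 8.43-fold. Nek2, a kinase that separates centrosomes, reached 10.3-fold and 11.2-fold. Of 16 mitotic kinase genes, 12 were higher and 0 lower, with a median log2 fold of 1.51, and the 4 others were Nek6, Nek7, Nek9 and Vrk1. Aurkb, the kinase of the chromosomal passenger complex, was 3.35-fold and 3.78-fold higher, below Aurka.

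Spindle genes were also high. Of 32 spindle and kinesin genes 26 were higher, 1 was lower and the median log2 fold was 2.44. Kpna2, an importin that also regulates spindle assembly factors, stood at 499 and 538 CPM, against 50.7 and 51.4 CPM. The microtubule depolymerase Kif2c was 9.25-fold and 9.90-fold higher, the kinesin Kif18b 8.48-fold and 8.88-fold, and Hmmr, a spindle assembly factor, 8.90-fold and 9.96-fold. Gpsm2, which orients the spindle through cortical dynein, was 9.21-fold and 9.92-fold higher. The exception was Tubg1, gamma-tubulin of microtubule nucleation, at 21.2 and 18.5 CPM in mitotic cells, against 32.3 and 31.6 CPM. Among tubulins 6 of 9 tested were higher, led by Tuba1c at 891 and 895 CPM, against 129 and 130 CPM.

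All 14 cytokinesis and chromosomal passenger genes were higher, with a median log2 fold of 2.32. They include Prc1, which bundles the central spindle, at 6.87-fold and 7.44-fold, and Birc5, survivin of the passenger complex, at 5.04-fold and 5.19-fold. Of 33 kinetochore and centromere genes tested 24 were higher and 0 lower. Cenpe, the kinetochore motor, was 7.55-fold and 8.05-fold higher. The 8 kinetochore genes of lowest fold, among them Cenpu, Cenpo, Zwint, Cenph and Mis12, lay between 1.05-fold and 1.48-fold over both pools. Of 26 genes of chromosome structure 17 were higher, among them Top2a, the topoisomerase that untangles chromatids, at 3.41-fold and 3.65-fold, and Hmgb2, a chromatin protein, at 3.31-fold and 3.52-fold.

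**Figure D1:**
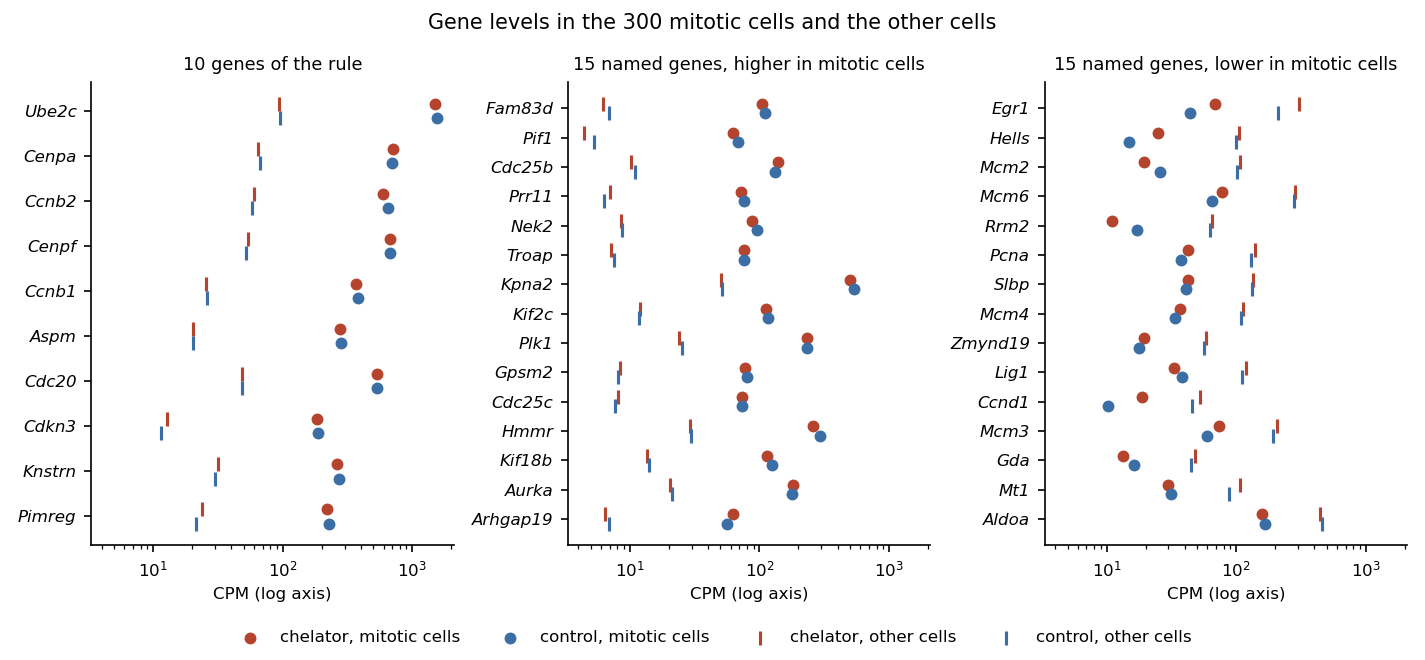
Levels in CPM (log axis) of the 10 rule genes and of the 15 highest and 15 lowest named genes, in mitotic cells (points) and other cells (bars) of the chelator (red) and control (blue) pool, 1 value per pool. Ube2c sits at 1489 and 1553 CPM in mitotic cells, right of 92.96 and 95.8 CPM in the other cells, and Mcm6 at 77.7 and 65.1 CPM, left of 286 and 277 CPM.

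The anaphase-promoting complex split into its core and its regulators. Its enzymes and activators were high: beside Ube2c and Cdc20, Ube2s was at 540 and 564 CPM, against 161 and 163 CPM, and Fzr1, the activator CDH1 of late mitosis and G1, was 4.46-fold and 4.31-fold higher. Its inhibitor Fbxo5 (EMI1) was 2.34-fold and 3.03-fold higher. Of its subunit genes, Anapc11, the catalytic RING subunit, was at 146 and 135 CPM, against 146 and 143 CPM, and Anapc1 and Anapc4, of the scaffold, were 1.12-fold and 1.14-fold higher over both pools. Among the 14 subunit genes of the list, Cdc23 (1.63-fold) and Cdc27 (1.77-fold), of the arm that binds the activators, were counted as higher and the other 12 were not. Checkpoint genes stood between, with Bub3 at 430 and 439 CPM, against 138 and 137 CPM, and Mad2l1 at 128 and 132 CPM, against 46.6 and 44.2 CPM. The list as a whole, complex and checkpoint, had 8 of 23 genes higher and 1 lower, Kntc1, which brings the checkpoint to kinetochores.

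Replication genes were low. Mcm2, Mcm3, Mcm4, Mcm5, Mcm6 and Mcm7 encode the ring that is loaded on DNA to license origins, and all 6 were lower in mitotic cells. Mcm6 was at 77.7 CPM in chelator and 65.1 CPM in control mitotic cells, against 286 and 277 CPM in the other cells, and Mcm2 at 19.6 and 25.8 CPM, against 107 and 102 CPM. Cdt1, the loader of that ring, was at 8.76 and 7.27 CPM, against 68.6 and 64.7 CPM. Of 17 licensing genes tested 13 were lower and 1 was higher. The one that was higher was Dbf4, the activating subunit of the CDC7 kinase, at 121 and 111 CPM, against 30.7 and 31.5 CPM.

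Of 40 genes of S-phase enzymes 26 were lower and 0 higher, with a median log2 fold of -0.90. Pcna, the sliding clamp, was at 42.9 and 37.3 CPM, against 141 and 130 CPM. Rrm2, which makes deoxynucleotides, was at 11.1 and 17.2 CPM, against 65.5 and 62.6 CPM, and Slbp, which binds histone mRNA, at 42.2 and 41.3 CPM, against 135 and 131 CPM. Ung, the uracil-DNA glycosylase of base excision repair, chosen after its values were seen, had 4 UMIs in chelator and 0 in control mitotic cells, 0.922 and 0 CPM, against 42.1 and 40.9 CPM in the other cells, a ratio over both pools of 0.0131 (0.00356 to 0.0335). That was 1.72% of chelator mitotic cells with a UMI, against 27.1% of the other chelator cells, although the mitotic cells were deeper. E2f1, the activator of this gene class and also picked out afterwards, had 24 and 3 UMIs, 5.53 and 0.991 CPM, against 38.6 and 38.9 CPM. Rrm1, the partner of Rrm2, was near the other cells with a fold of 0.964 over both pools.

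Histone genes did not follow the replication enzymes when mitotic cells were set against all other cells, but did against the cells next in rank by score. Against the cells next in rank, the median log2 fold over both pools was -0.66 for histone genes. It was -0.65 there for S-phase enzymes and -0.79 for licensing genes. Against all other cells, 17 of 48 replication-dependent histone genes tested were higher in mitotic cells and 1, Hist1h1a, was lower. The median log2 fold of these histone genes was then 0.51 in the chelator and 0.83 in the control pool. Hist1h2ae was at 821 CPM in chelator and 913 CPM in control mitotic cells, against 507 and 494 CPM. These mRNAs largely lack a poly(A) tail, the library was primed on poly(A), and the genes are near-identical copies, so single-gene values are uncertain.

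Along the score, the gene groups peaked at different ranks. In CPM summed over both pools, the 62 histone genes stood at 3233 in ranks 1 to 100, 6309 in ranks 101 to 200, 7617 in ranks 201 to 300 and 9810 in ranks 451 to 600, reached 10091 in ranks 601 to 1000 and were at 1242 in ranks 2001 to 7967. The 18 licensing genes stood at 553 CPM in ranks 1 to 100, 712 CPM in ranks 201 to 300 and 2197 CPM in ranks 1001 to 2000, and at 1271 CPM in the rest. In the same 4 rank bins Top2a was at 915, 830, 518 and 70.1 CPM. The 93 mitosis genes of the kinase, kinetochore, spindle and cytokinesis lists outside the rule were at 13749 CPM in ranks 1 to 100 and at 1542 CPM in ranks 2001 to 7967. The cells of highest score thus had the lowest histone and licensing levels among ranks 1 to 2000, and the S-phase enzymes were lowest there too, at 1686 CPM.

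**Figure D2:**
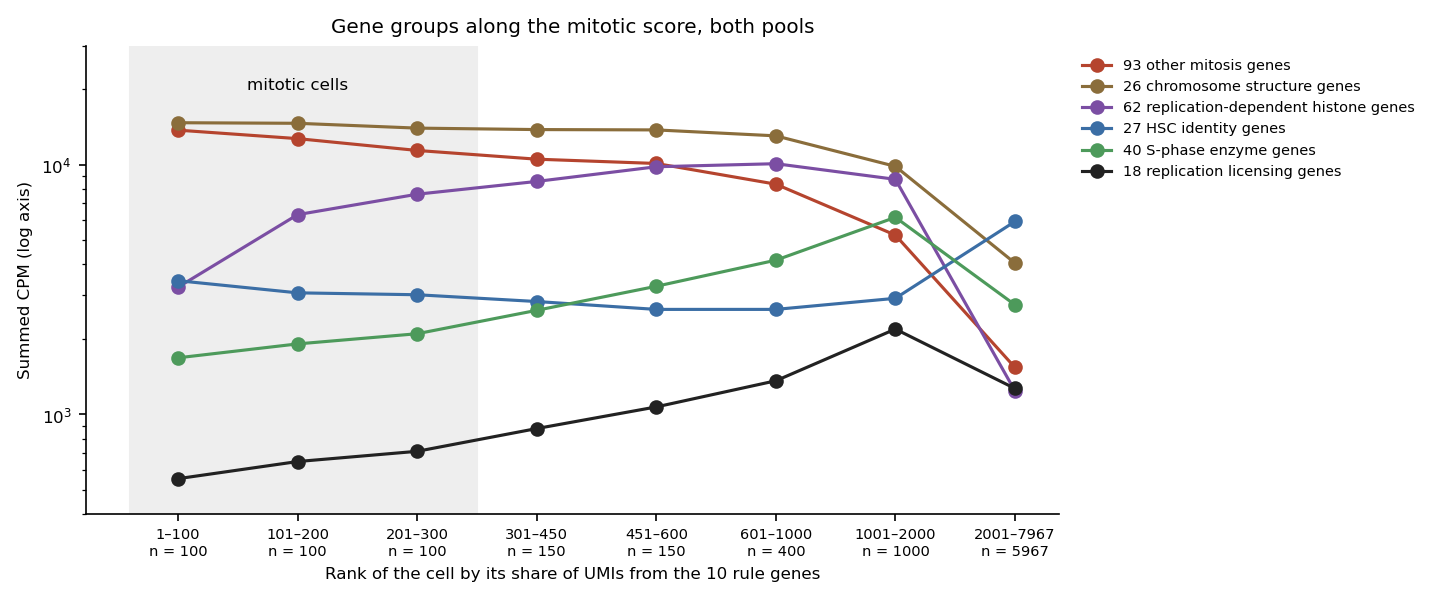
Summed CPM (log axis) of 6 gene groups in cells of both pools ordered by the mitotic score, with the number of cells per rank bin under the axis and the 300 mitotic cells shaded. Histone genes stand at 3233 CPM in ranks 1 to 100 and at 10091 CPM in ranks 601 to 1000, licensing genes at 553 CPM in ranks 1 to 100 and at 2197 CPM in ranks 1001 to 2000.

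Set against the next 300 cells by score, folds were smaller. The median log2 fold was then 0.38 for spindle genes, 0.24 for cytokinesis genes and 0.14 for kinetochore genes. It was 0.07 for cyclins and CDK regulators of G2 and M and 0.03 for the anaphase-promoting complex and checkpoint. Chromosome structure stood at 0.01, mitotic kinases at -0.02 and tubulins at -0.08, so these lists as a whole were near the next cells. At 1.5-fold over both pools together, 156 genes (1.86% of those tested) were higher and 156 (1.86%) lower than in ranks 301 to 600. Cdc25b was 2.16-fold higher, Kpna2 1.89-fold, Fam83d 1.88-fold and Arl6ip1, an endoplasmic reticulum shaping protein, 1.81-fold. Top2a was at 1.05-fold, Aurkb at 1.04-fold and Mki67, the proliferation antigen of the chromosome surface, at 1.12-fold. Rrm2 was at 0.291-fold, Mcm2 at 0.525-fold and Hist1h2ae at 0.654-fold. A further comparison was with the 300 cells of highest share of Mcm2 to Mcm7 UMIs, none of them among the mitotic cells. Against these, 963 genes (11.5%) were higher and 1005 (12.0%) lower. Ube2c, a gene of the rule, was 182-fold higher, which follows from how both groups were chosen.

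Inhibitors of G1 kinases were counted among the higher genes. Cdkn2d was at 108 CPM in chelator and 115 CPM in control mitotic cells, against 48.4 and 49.5 CPM, and Cdkn2c at 56.0 and 72.7 CPM, against 28.4 and 30.7 CPM. Cdkn1b, which encodes p27, was 1.85-fold and 2.003-fold higher, and Ccng2, an atypical cyclin, 2.53-fold and 2.62-fold. G1 cyclins were lower, with Ccnd1 at 18.7 and 10.2 CPM, against 52.7 and 45.9 CPM, and Ccnd2 at 91.5 and 77.9 CPM, against 155 and 159 CPM. Of this list, 4 of 21 genes tested were higher and 7 lower. None of 7 tested p53 targets passed 1.5-fold in both pools in either direction.

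**Figure D3:**
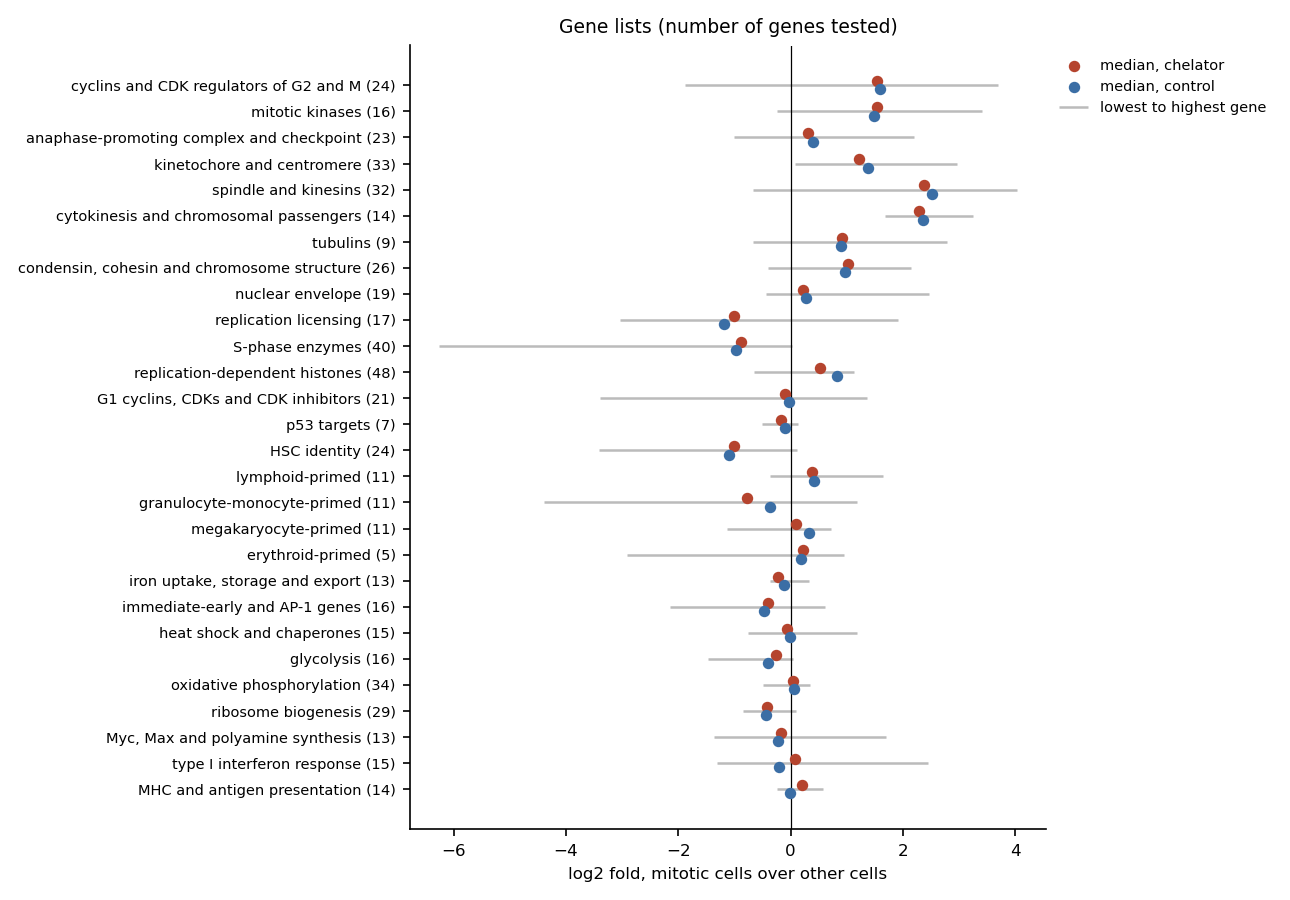
Median log2 fold of each gene list, mitotic cells over other cells, in the chelator (red) and control (blue) pool, with a grey line from the lowest to the highest gene over both pools and the number of genes tested in brackets. Spindle genes lie at 2.37 in the chelator and 2.52 in the control pool, replication licensing genes at -1.01 and -1.19.

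Stem cell genes were lower in mitotic cells. Of 24 HSC identity genes tested 14 were lower and 0 higher, with a median log2 fold of -1.02. Sult1a1 was at 10.4 and 4.62 CPM, against 94.5 and 75.001 CPM, and Procr, the surface receptor EPCR, at 29.3 and 23.5 CPM, against 77.5 and 88.3 CPM. The transcription factor genes Hlf and Mecom were at 0.788-fold and 0.816-fold over both pools, and so did not pass. Against ranks 301 to 600, the same list had a median log2 fold of 0.30.

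Lineage genes were unequal. Dntt, the lymphoid DNA polymerase, was at 507 and 488 CPM, against 166 and 154 CPM, with a UMI in 39.1% and 38.9% of mitotic cells and in 22.9% and 21.4% of the other cells. It and Satb1, a chromatin organiser of lymphoid progenitors, were the 2 higher genes among 11 lymphoid ones tested. Mpo, myeloperoxidase, was at 220 and 224 CPM, against 478 and 431 CPM. It was seen in more of the mitotic cells, 50.6% and 49.2%, against 34.4% and 34.9%. Mitotic cells were deeper than the other cells, which raises such shares. In ranks 301 to 600, of like depth, Mpo was seen in 55.2% of chelator and 51.1% of control cells. Dntt was seen there in 42.3% and 36.5%. The richest 1% of the other cells held 52.97% of their Mpo UMIs in the chelator and 49.5% in the control pool. Elane, neutrophil elastase, was at 7.60 and 3.96 CPM, against 136 and 118 CPM, where the richest 1% of the other cells held 98.3% of the UMIs in each pool. Levels of Mpo and Elane over all other cells thus rested on few cells.

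Of other lists, 6 of 29 ribosome biogenesis genes, 3 of 16 glycolysis genes and 6 of 16 immediate-early genes were lower, and none of these 3 lists had a higher gene. Srm, spermidine synthase, was at 77.9 and 77.3 CPM, against 186 and 192 CPM, and Myc at 225 and 202 CPM, against 399 and 353 CPM. Egr1, an immediate-early transcription factor, was at 68.2 and 43.9 CPM, against 307 and 210 CPM. Over both pools Egr1 was also low in ranks 301 to 450 and 451 to 600, at 52.5 and 54.8 CPM. It stood at 348 CPM in ranks 2001 to 7967. Against ranks 301 to 600, the median log2 fold was 0.15 for immediate-early genes, -0.21 for ribosome biogenesis and -0.09 for glycolysis. None of 34 oxidative phosphorylation genes and none of 13 iron genes tested passed 1.5-fold in both pools, and Fth1, ferritin heavy chain, was at 0.785-fold and 0.792-fold. Among nuclear envelope genes 7 of 19 were higher, such as Arl6ip1 at 1524 and 1588 CPM, against 339 and 341 CPM, and Reep4, which clears membranes from mitotic chromosomes, at 184 and 203 CPM, against 34.3 and 35.3 CPM.

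Surface tags were not used by the rule. Gates were set on CD135 (FLT3), CD48 and CD150 (SLAMF1): HSC were CD135- CD48- CD150+, MPP1 negative for all, MPP2 CD48+ CD150+, MPP3 CD48+ alone and MPP4 CD135+ CD150-. Of chelator mitotic cells 13.8% (9.04 to 19.8) were in the HSC gate and 41.4% (34.0 to 49.1) in MPP4, against 33.5% and 33.0% of the other chelator cells. Of control mitotic cells 18.3% (11.9 to 26.1) were in the HSC gate and 56.3% (47.2 to 65.2) in MPP4, against 29.3% and 38.3% of the other control cells. Over both pools the HSC share was 15.7 percentage points lower than in the other cells (the difference ran from -19.8 to -11.0), and the MPP4 share 12.0 points higher (6.12 to 17.9). Cells next in rank and licensing cells lay nearer. Of mitotic cells 15.7% were in the HSC gate, against 13.3% of ranks 301 to 600 and 12.7% of the 300 cells of highest Mcm share, and 47.7% were in MPP4, against 50% and 42.3%. The difference from the cells of highest Mcm share had an interval holding 0 in both gates, at 3 points (-2.82 to 8.82) in HSC and 5.33 points (-2.86 to 13.4) in MPP4. Cells within 0.25 of a gate's threshold were 21.0% of mitotic cells for CD135, 11.3% for CD48 and 6.33% for CD150.

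The share of mitotic cells, as chosen by the rule, was highest in MPP2, the gate of megakaryocyte-biased progenitors. Mitotic cells were 11.2% (5.74 to 19.2) of the 98 MPP2 cells in the chelator pool and 9.89% (4.62 to 17.9) of the 91 in the control pool. In the HSC gate they were 1.84% (1.18 to 2.73) of 1304 chelator cells and 2% (1.27 to 2.99) of 1150 control cells. MPP4 stood between with 5.40% (4.25 to 6.75) and 4.60% (3.61 to 5.77). In both pools the intervals of the HSC and MPP2 gates did not overlap, while those of MPP2 and MPP4 did.

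Single tags went the same way as the gates. Per 10000 tag UMIs, CD62L (L-selectin) stood at 138 in chelator and 134 in control mitotic cells, against 72.9 and 74.5 in the other cells, and the integrin chain CD11a at 18.5 and 21.1, against 11.9 and 12.8. CD61 (integrin beta 3) stood at 57.5 and 50.4, against 133 and 112. Sca-1, a sort marker, stood at 18.4 and 15.4, against 32.1 and 31.8. CD150 stood at 103 and 119, against 211 and 211, as a sum. The median cell differed less, with 14 and 13 CD150 UMIs, against 15 and 13. The median centred log ratio of CD150 differed by -0.22 and -0.14. CD117 (c-Kit), the other sort marker, was 1.16-fold higher in each pool. CD71, the transferrin receptor through which dividing cells take up iron, stood at 14.0 in chelator and 27.7 in control mitotic cells, against 10.0 and 13.4 in the other cells. One control mitotic cell, described below as rich in globin RNA, held 579 CD71 UMIs by itself. The Ly.6C tag was 1.84-fold and 1.47-fold higher as a sum, whereas its median centred log ratio differed by -0.02 and 0.00, so that sum rested on few cells.

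The pools were then compared for the share of mitotic cells, as chosen by the rule. Mitotic cells made up 4.35% (3.74 to 5.03) of chelator cells, 174 of 3998, and 3.17% (2.65 to 3.77) of control cells, 126 of 3969, a difference of 1.18 points (0.325 to 2.03). Within cells with Xist the shares were 3.79% (34 of 897) and 2.75% (39 of 1417), a difference of 1.04 points with an interval from -0.481 to 2.70. Within cells with Y-linked transcripts they were 5.19% (132 of 2542) and 4.25% (83 of 1952), a difference of 0.941 points from -0.353 to 2.21. The direction was the same in both sex classes and neither interval left out 0. With the 200 highest cells the difference was 0.634 points, from -0.0702 to 1.34, so the choice of the number of cells also decided whether 0 lay inside.

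By gate, the chelator share was higher, with an interval that left out 0, in MPP1, MPP3 and the CD135+ CD150+ gate. In MPP3, 36 of 588 chelator cells were mitotic, 6.12% (4.32 to 8.38), against 14 of 483 control cells, 2.90% (1.59 to 4.82), a difference of 3.22 points (0.596 to 5.83). In MPP1 it was 23 of 544, 4.23%, against 7 of 533, 1.31%, a difference of 2.91 points (0.859 to 5.11). In the CD135+ CD150+ gate it was 8 of 130 and 2 of 168, a difference of 4.96 points (0.355 to 10.7), with both class intervals holding 0, at 4.00 points (-3.80 to 16.9) in the Xist class and 7.50 points (-1.47 to 17.3) in the Y-linked class. Within cells with Y-linked transcripts the MPP3 difference was 4.01 points (-0.233 to 7.73) and within cells with Xist 2.04 points (-2.46 to 7.62). Within cells with Y-linked transcripts the MPP1 difference was 4.34 points (1.12 to 7.65) and within cells with Xist 1.14 points (-2.70 to 5.81). In the HSC gate the shares were 1.84% and 2%, a difference of -0.160 points (-1.34 to 0.987), and in MPP4 they were 5.40% and 4.60%, a difference of 0.799 points (-0.840 to 2.47). The MPP4 direction turned by class, with 1.66 points (-1.21 to 5.22) in the Xist class and -0.406 points (-2.82 to 1.94) in the Y-linked class. In the HSC gate the class differences were -0.784 points (-2.9996 to 1.43) and -0.217 points (-2.14 to 1.56), and in MPP2 they were 7.22 points (-7.66 to 23.5) and -7.94 points (-27.6 to 9.22). Differences between the gates were not tested. The same CD135 threshold served both pools, while the CD135 tag was lower in the chelator pool. Per 10000 tag UMIs, its chelator over control ratio was 0.696 (0.639 to 0.757) in mitotic cells. In the other cells that ratio was 0.745 (0.728 to 0.762). Whether this moved cells from one gate to another was not tested.

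**Figure D4:**
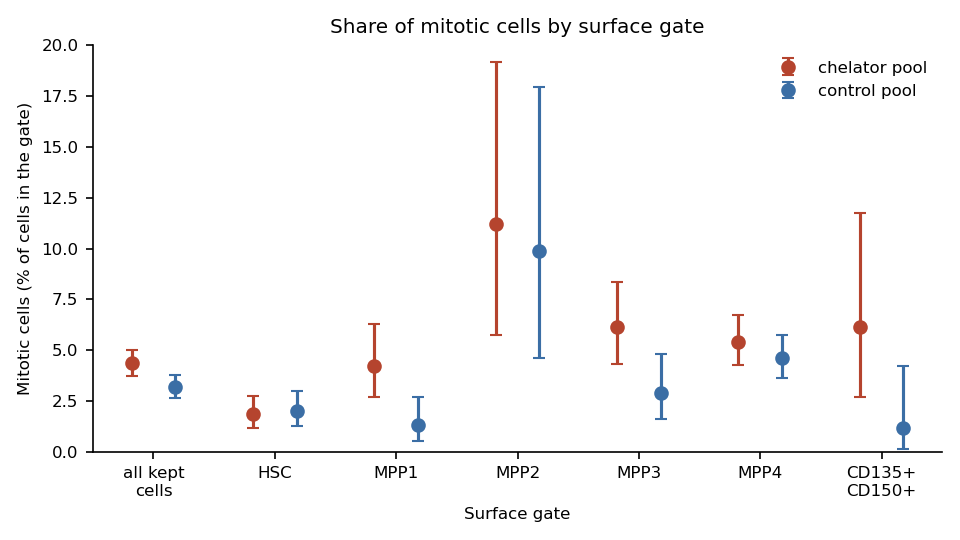
Mitotic cells as a percentage of all kept cells and of the cells in each surface gate, in the chelator (red) and control (blue) pool, with 95% Clopper-Pearson intervals that cover counting error only. MPP2 holds the highest share, 11.2% and 9.89%, the HSC gate 1.84% and 2%, and MPP3 6.12% and 2.90%.

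Before gene levels are compared between the pools, cells with markers of other cell types are described. Of the mitotic cells, 15 had 10 or more UMIs of B-cell, macrophage or dendritic, mast or basophil, or red-cell markers. For mast and basophil markers these were 2 chelator and 6 control cells, against 39 of 3824 and 47 of 3843 other cells. For red-cell markers they were 1 and 3, against 47 and 48, for macrophage or dendritic ones 2 and 1, against 10 and 9. For B-cell markers they were 0 and 0, against 5 and 11. Apart from the control cells named next, none held more than 26 UMIs of any of these lists. Those cells were not shown to be of another kind. A pair of control cells held 1081 and 761 UMIs of the 6 mast-cell and basophil markers, and the list summed to 24.4 CPM in chelator and 658 CPM in control mitotic cells. Another control cell held 7373 of the 7478 UMIs of the 5 red-cell markers in control mitotic cells, and that list summed to 18.2 and 2470 CPM. That cell also had 16 UMIs of the erythroid factor Klf1. Cd3e and Cd3g of T cells and Ms4a1, Pax5 and Igll1 of B cells were at 0 in mitotic cells of both pools.

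Among 8260 genes with at least 100 UMIs over the mitotic cells, 85 (1.03%) were 1.5-fold or more higher and 61 (0.738%) lower in chelator than in control mitotic cells. The same genes in the other cells, which are far more numerous, gave 6 (0.0726%) and 13 (0.157%). The 10 genes that chose the cells had ratios from 0.916 for Ccnb2 to 1.013 for Cenpa. Both pools were cut at 1 common score of these genes, so their near-equal ratios follow from the choice of cells. None of the genes in the kinase, kinetochore, spindle, cytokinesis, chromosome structure and anaphase-promoting complex lists passed 1.5-fold between the pools in either direction. Their median log2 ratios lay between -0.08 for spindle genes and -0.01 for chromosome structure. Mitosis genes outside the rule rose with the same score, so the common cut also limits how far these lists could differ.

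Of the 10 genes named as lowest in the chelator pool, the 6 with the lowest ratios lay mostly in the 3 control cells above. Hba-a1, alpha globin, had 0 UMIs in chelator and 587 in control mitotic cells, all 587 in 1 cell. Prss34, a basophil protease, had 0 UMIs in chelator mitotic cells and 1292 in control ones, all in 2 cells, of 747 and 545 UMIs. Counted against a floor of 3 UMIs per pool, this was at least 280-fold lower for Hba-a1 and at least 617-fold lower for Prss34. Hbb-bs had 12 and 5120 UMIs, of which the red-cell-like control cell held 5113, and without the 15 cells its ratio was 1.04 in place of 0.00164. One cell also held 1317 of the 1406 control UMIs of Hbb-bt and all 314 of Hba-a2, and the 2 cells rich in Prss34 held 286 and 176 of the 471 of Mcpt8. Cpa3, a mast-cell carboxypeptidase, was spread over 30 control cells, with a ratio of 0.383 (0.280 to 0.520) and of 0.625 without the 15 cells. The other 3 of the 10 were Hspa1b, Pglyrp1 and Hist1h3f, seen in 35, 27 and 66 control mitotic cells.

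Several of the highest named genes also lay in few cells. Irf8, a transcription factor of monocytes and dendritic cells, was at 73.0 CPM in chelator and 32.0 CPM in control mitotic cells, a ratio of 2.28 (1.81 to 2.89), against 0.850 in the other cells. Cells with 10 or more Irf8 UMIs numbered 8 in the chelator and 2 in the control pool. Cells with 10 or more UMIs each of Irf8, Cd74 and Ifi205 numbered 3 and 1. Ifi205 had 82 UMIs in 4 chelator cells and 21 UMIs in 1 control cell. Cd74, the invariant chain of MHC class II, was at 504 and 258 CPM, and the 5 richest cells held 90.6% of its UMIs in the chelator and 89.1% in the control pool. Its ratio was 1.96, with 1.10 in the Xist and 1.58 in the Y-linked class, and 3.91 without the 15 cells. Within cells with Xist the Irf8 ratio was 0.772, so its direction turned there. Tgfbi, a matrix protein of monocytes, turned likewise, with 0.0693 where Xist was seen and 5.17 where Y-linked transcripts were.

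Fos, the immediate-early AP-1 subunit, was spread over many cells. It was at 266 CPM in chelator and 119 CPM in control mitotic cells, a ratio of 2.24 (1.99 to 2.53), with a UMI in 66.7% and 52.4% of them. In the other cells it was at 479 and 322 CPM, a ratio of 1.49 (1.46 to 1.52). Within mitotic cells with Y-linked transcripts the levels were 279 and 92.9 CPM, a ratio of 2.998 (2.56 to 3.53), and within those with Xist 167 and 170 CPM, a ratio of 0.986 (0.782 to 1.24). The other cells split in the same way, at 1.91 and 0.864. Nr4a1, a nuclear receptor of the same response, had a ratio of 2.14 (1.52 to 3.07), which turned to 0.832 (0.413 to 1.63) in the Xist class and was 3.01 in the Y-linked class. Hspa1b, an inducible heat shock chaperone, was at 12.7 and 50.5 CPM, a ratio of 0.251 (0.181 to 0.343), with 0.359 and 0.257 in the classes and 0.199 in the other cells. The part of sex make-up, tissue handling or chelation in these ratios was not tested.

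Histone genes were lower in chelator than in control mitotic cells. Summed over 62 genes they were at 5390 CPM in chelator and 6332 CPM in control mitotic cells, a ratio of 0.851 (0.835 to 0.868), against 1.05 in the other cells. Of 49 genes with enough UMIs, 7 were 1.5-fold or more lower and 0 higher in chelator mitotic cells. Of the same genes, 23 had an interval below 1, as did 4.42% of all genes, and 1 an interval above it, as did 4.73%. These intervals cover counting error and not the spread between cells, so the counts by interval are no test. Hist1h3e was at 158 and 262 CPM, a ratio of 0.603 (0.543 to 0.668), with 0.362 in the Xist and 0.784 in the Y-linked class. Hist1h3f was at 50.0 and 97.8 CPM, a ratio of 0.511 (0.427 to 0.611), with 0.255 and 0.731 in the classes and 0.603 without the 15 cells. The summed ratio was 0.775 in ranks 1 to 100, 0.869 in ranks 101 to 200 and 0.819 in ranks 201 to 300, and 0.974 in ranks 301 to 600.

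The histone ratio differed by sex class. In cells with Xist the summed level was 3447 CPM in 34 chelator and 7823 CPM in 39 control mitotic cells, a ratio of 0.441 (0.422 to 0.460). The median cell held 16.7 histone UMIs per 10000 in the chelator and 53.6 in the control pool. Single cells ran from 0.801 to 122 in the chelator and from 1.90 to 456 in the control pool. The red-cell-like control cell is among them, with 307. The interval of the ratio covers counting error and not this spread between cells. In cells with Y-linked transcripts the levels were 5899 and 5517 CPM, a ratio of 1.07 (1.04 to 1.09), and the medians 33.7 and 35.4. Of the 49 genes, 48 had a ratio under 1 in mitotic cells with Xist and 15 in those with Y-linked transcripts. Other cells had a ratio of 0.839 in the Xist class and 1.19 in the Y-linked class. The part of sex, or of single mice, in the difference was not tested, and the sources used here do not give how many mice stood behind each class.

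**Figure D5:**
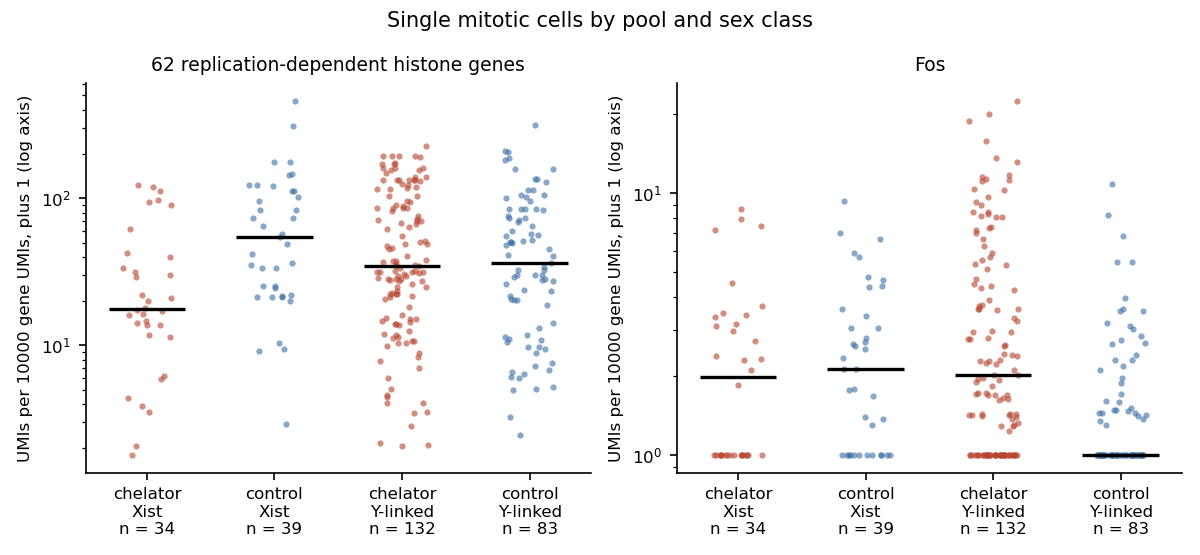
Single mitotic cells by pool and sex class: UMIs per 10000 gene UMIs plus 1 (log axis) of 62 histone genes and of Fos, with a bar at the median. The Xist class has histone medians of 16.7 in 34 chelator and 53.6 in 39 control cells, and the Y-linked class 33.7 in 132 and 35.4 in 83 cells (values before 1 is added).

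Of 13 megakaryocyte genes with enough UMIs, 1, Pf4, was 1.5-fold or more lower in chelator than in control mitotic cells and 0 higher. By interval, 7 of them lay below 1, as did 4.42% of all genes, and 0 above it, as did 4.73%. These intervals cover counting error and not the spread between cells, so the counts by interval are no test. The median log2 ratio of these genes was -0.30 in mitotic cells and 0.02 in the other cells. Pf4, platelet factor 4, was at 107 CPM in chelator and 206 CPM in control mitotic cells, a ratio of 0.518 (0.458 to 0.585), of 0.492 without the 15 cells, and of 0.848 in the Xist and 0.471 in the Y-linked class. Pf4 was seen in 31.0% of chelator and 24.6% of control mitotic cells, and the 5 richest cells held 65.3% and 70.2% of it. Gata2, a stem cell and megakaryocyte factor, had a ratio of 0.699 (0.620 to 0.787), with 0.627 and 0.692 in the classes. Gata1, the erythroid and megakaryocyte factor, had one of 0.604 (0.467 to 0.780), with 0.970 and 0.523. Iron genes did not pass 1.5-fold between the pools in any of 12 tested, and Fth1 had a ratio of 1.011 (0.973 to 1.05), with 0.970 and 1.020 in the classes.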

How the data were processed

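The deposited matrices held raw UMI counts per gene and per antibody tag, made by the authors with Cell Ranger 7.0.0 and Seurat 4.3.0 on mm10, per the submitters' processing notes, while the file headers name cellranger 7.0.1. Each cell's condition came from its hashtag matrix. Of 4037 chelator and 4026 control barcodes, 39 and 57 were removed by the filter of 500 genes and 10% mitochondrial UMIs. No doublet caller was run, and 2 mitotic cells carried at least 2 Xist UMIs and at least 2 Y-linked UMIs. Cells with fewer UMIs of either kind are not in that count.

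Levels are UMIs summed over cells and divided by all gene UMIs (CPM). Intervals are 95%, exact Clopper-Pearson for shares and exact conditional binomial for ratios, and no test across animals was possible with 1 pool per condition. A cell counted as with Xist at 2 or more Xist UMIs and no Y-linked one, and as Y-linked at 1 or more UMIs of Ddx3y, Eif2s3y, Kdm5d or Uty and no Xist. Gates were the thresholds of Gaussian mixtures with 2 components fitted to centred log ratios over 126 tags. The mitotic cells and the gene lists were chosen with earlier results of these data known.

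Genes named between mitotic and other cells were the 15 highest and 15 lowest by the smaller of both pools' folds, among genes with at least 100 UMIs and a UMI in 10% of mitotic cells. Genes named between the pools were the 10 largest and 10 smallest with an interval not holding 1, and up to 5 leading members of each list were named too. Others were chosen after their values were seen. Python 3.11.15, numpy 2.4.6, scipy 1.17.1, pandas 2.3.3, scikit-learn 1.9.0 and matplotlib 3.10.9 were used, and the scripts were tested on simulated data. Gene identifiers were found in the name table for 32158 of 32285 genes.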

Additional observations from a re-analysis of the deposited data

Results flagged for a closer look

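A few genes had opposite directions in the pools or the sex classes, and the differences themselves were not tested. Irf8 in mitotic over other cells had a log2 fold of 1.05 in the chelator pool and -0.37 in the control pool. Tgfbi, chelator over control mitotic cells, had a log2 ratio of -3.85 where Xist was seen and 2.37 where Y-linked transcripts were. Hba-a1 had no UMI in chelator mitotic cells and a log2 fold over other cells of 3.78 in the control pool. Hbb-bs had log2 folds over other cells of -2.34 in the chelator and 3.88 in the control pool, and Hbb-bt of -1.25 and 3.10. Cpa3 had -0.90 and 0.30. In the control pool 5113 of 5120 Hbb-bs UMIs of mitotic cells lay in 1 cell.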

How the results depend on the processing

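No paired analysis was possible because each condition was 1 pool. Under 19 other settings and 1 chosen after seeing the data, 110 of 127 values of the main results lay within the reported interval or, for counts, within 1.5 times. The HSC gate difference ran from -17.4 to -13.5 points, the MPP4 difference from 7.16 to 13.1 points and the chelator minus control share from 0.634 to 1.87 points. Intervals held 0 for that share with 200 cells (-0.0702 to 1.34) and within each sex class, and for MPP4 in cells with Xist (-4.62 to 19.4). With 150 cells taken from each pool that share is fixed and gave no value. Genes higher in mitotic cells numbered 184 in cells with Xist, 254 at a minimum of 300 UMIs and 1177 with no minimum, and genes lower 105, 142 and 2103, with 596 at a minimum of 50. Genes higher in chelator mitotic cells numbered 54 in cells with Xist, 215 at a minimum of 50 UMIs, 10 at 300 and 2794 with none, and genes lower 104, 175, 17 and 2257. The gene UMI ratio was 1.71 with the last 5 rule genes and 1.69 in cells with Xist. Of 1596 values for 201 named results, 1117 stayed within their interval, 467 moved and 12 reversed. Between the pools, log2 ratios reversed in cells with Xist for Naaa (-2.49), Mpeg1 (-0.27), Irf8 (-0.37), Fos (-0.020), Nr4a1 (-0.27) and Tgfbi (-3.85), and for Irf8 with 450 cells (-0.024). Hbb-bs reversed with Y-linked cells (0.20), with 200 cells (0.27) and without the 15 cells rich in markers of other types (0.058), and Hbb-bt with Y-linked cells (0.57). Ly6c2 over other cells reversed with 200 cells (-0.53). The cause was not tested. Genes with few UMIs are limited by depth.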
